A study of Mus musculus with 12 samples.

Results

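EYFP-positive cells were compared with EYFP-negative cells from wild-type mouse embryos at embryonic day 8.0, 3 arrays against 3. These are 6 of the 12 arrays of the series, chosen by their labels as ER71 wild-type and EYFP positive or EYFP negative, and all 18193 genes with a named probe set were described. The other 6 arrays hold the same 2 sorts from ER71 mutant embryos of the same age, and they enter here in the model's estimate of the spread, in the choice of probe sets, in the test of the genotype interaction and in the values of a few genes. ER71 is the older name of Etv2. All embryos, wild-type and mutant, came from a line labelled ER71 EYFP on a mixed C57BL/6 and FVB background. What drives the EYFP reporter, a yellow fluorescent protein, and the nature of the mutant allele are not stated in the sources used here. Cells were freed with trypsin and sorted by fluorescence, and their total RNA was amplified in 2 rounds and hybridised to oligonucleotide arrays. The labels do not tell whether arrays of 1 group come from separate embryos, separate pools or partly shared material. Every p-value below therefore measures the spread between these arrays, part of which may be technical.

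Etv2 is an ETS-family transcription factor that is switched on briefly in mesoderm that leaves the primitive streak, and mouse embryos without it make neither blood vessels nor blood. Mesoderm cells that carry the VEGF receptor Kdr turn on Etv2, then Tal1 and a set of other blood and vessel factors. Some of their descendants become endothelial cells, which are marked by the junction protein Cdh5. Others become the primitive red cells of the yolk sac, which make embryonic globins such as Hba-x. The remaining embryo at this age holds neural plate, neural crest, somites, heart, gut endoderm, surface ectoderm and the endoderm of the yolk sac.

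The positive fraction was described with the 5 genes above. Etv2 itself had log2 values of 10.72, 10.70 and 11.36 on the positive arrays, against 7.58, 7.50 and 7.85 on the negative arrays, and no positive array overlapped a negative one. The difference was 3.28 ± 0.17 log2 (adjusted p = 3.33e-07). Cdh5 values were 10.35, 10.04 and 10.29 on the positive arrays, against 4.78, 4.71 and 4.88 on the negative arrays, and those negative values lay below the 25th percentile of every array (5.62 to 5.69 log2 on the 12 arrays), close to the dimmest signals. Its difference was 5.44 ± 0.11 log2 (adjusted p = 2.25e-10), the smallest adjusted p of any gene. Kdr, which already marks the mesoderm before blood and vessel cells form, had values of 12.57, 12.13 and 12.28 on the positive arrays, against 9.08, 9.17 and 9.24 on the negative arrays and differed by 3.17 ± 0.16 log2 (adjusted p = 3.33e-07). The negative level of Kdr lay well above the median of all probe sets (6.98 to 7.06 log2 on the 12 arrays). Tal1, the factor at the root of the blood and vessel programme, was measured at 12.11, 11.82 and 12.61 on the positive arrays, against 6.89, 6.92 and 7.27 on the negative arrays, a difference of 5.15 ± 0.18 log2 (adjusted p = 9.19e-09). Hba-x, the embryonic alpha-like globin, gave 12.47, 12.34 and 13.31 on the positive arrays, against 7.12, 6.50 and 9.23 on the negative arrays. Its difference was 5.09 ± 0.55 log2 (adjusted p = 0.000127), with an SD of 1.43 log2 over the 3 negative arrays and 0.52 over the 3 positive arrays. All 5 markers were thus higher in every positive array than in any negative array. Such a gap held for 11.9% of all genes.

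In mutant embryos the difference between the sorts departed from the wild-type one for 4 of these genes. Cdh5 measured 5.09, 4.86 and 4.998 in mutant positive cells and 4.93, 4.81 and 4.93 in mutant negative cells. Kdr measured 11.48, 11.72 and 12.17 in mutant positive cells and 9.19, 9.23 and 9.24 in mutant negative cells, so that its mutant fractions also did not overlap. The wild-type difference exceeded the mutant difference by 0.59 ± 0.23 log2 (adjusted p = 0.294) for Kdr, which did not pass the test, and by 5.34 ± 0.15 log2 (adjusted p = 1.34e-08) for Cdh5, which did. Over all genes this interaction passed for 469 (2.58%).

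**Figure D1:**
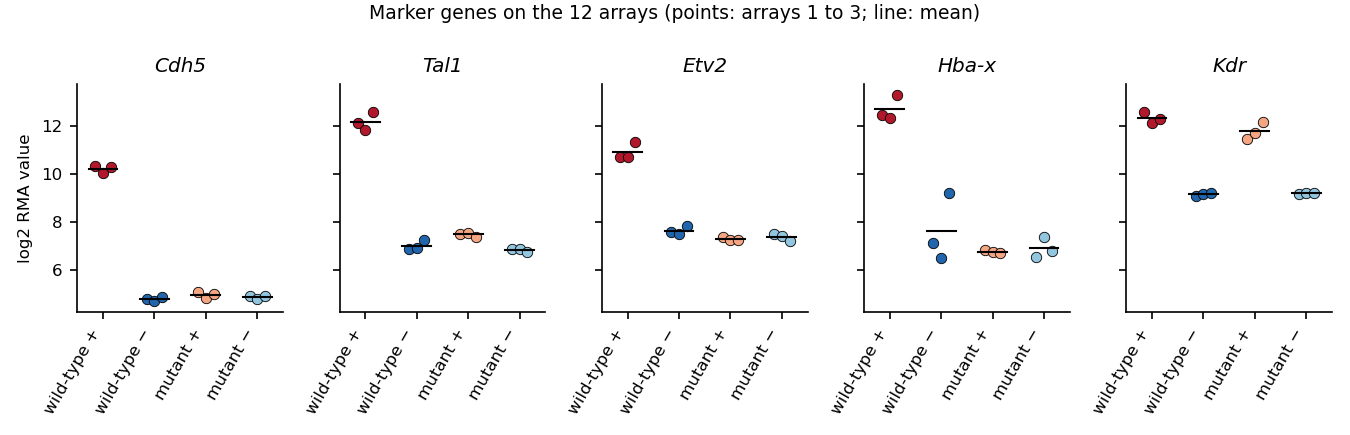
Log2 RMA values (vertical axis) of Cdh5, Tal1, Etv2, Hba-x and Kdr on the 12 arrays, 3 per group, with a line at each group mean; + and − stand for EYFP-positive and EYFP-negative cells. Wild-type positive arrays lie above wild-type negative arrays for all 5 genes, and mutant positive arrays lie above mutant negative arrays for Kdr but near them for Etv2.

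Arrays of 1 wild-type group correlated at r = 0.986 to 0.993 over genes and arrays of different wild-type sorts at 0.964 to 0.973. Genes are not independent replicates, so these values only describe the arrays. Array 1 of both sorts had high Eif2s3y, which lies on the Y chromosome, at 10.81, 4.16 and 4.31 on the positive arrays, against 11.23, 4.48 and 4.53 on the negative arrays. Xist, which silences the second X chromosome of female cells, was lowest on the same 2 arrays, at 10.33, 13.84 and 13.90 on the positive arrays, against 8.19, 13.77 and 13.97 on the negative arrays. The arrays numbered 1 therefore stand apart from the others in both fractions, so the 3 arrays of a wild-type sort do not all come from 1 pool. The gap between the 3-prime and 5-prime control probe sets for beta-actin, a measure of RNA length, was 3.05, 2.62 and 1.54 log2 on the positive arrays and 3.14, 1.92 and 1.57 on the negative arrays. The part of RNA length in the results was not tested. Of 196 called genes of the text that were followed singly, 21 lost their call in a fit without both arrays numbered 1, with adjusted p 0.0519 to 0.327: Ackr3, Afp, Bmp2, Col2a1, Col4a1, Col4a2, Cyp26b1, Egr2, Erg, Ets1, Etv6, Hbb-bh1, Klf2, Pcdh8, Pdcd10, Prrx1, S1pr3, Sox1, Sox2, Ttr and Vegfc. Not counted among the 196 are Kit, Epor, Itga2b, Itgb3, Pf4, Hbb-b2, Bmpr1b, Grem1, Id2, Msx2 and Ednrb, called genes named below. Each of these was lost under at least 1 alternative. The fit without both arrays numbered 1 rests on fewer arrays and so has less power. No fit without both arrays of another number was run for comparison. Counts of a gene list are given without both arrays numbered 1 where they moved by over 1.5 times. The single rises in the yolk sac endoderm, germ cell and retinoic acid lists and the single fall in the stress list were lost in that fit too.

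Of the 18193 genes, 1499 (8.24%) passed an adjusted p under 0.05: 843 (4.63%) were higher and 656 (3.61%) lower in positive cells. The counts of list members below are to be read beside these shares. With same-numbered positive and negative arrays treated as pairs, 1119 genes (6.15%) were higher and 1041 (5.72%) lower. Called rises were larger than called falls. Their median was 1.09 log2, against -0.90 for the falls, and 149 genes rose at least 4-fold while 59 fell at least 4-fold. At 16-fold or more the counts were 31 and 4. Of the genes that rose, 71 had a mean negative value below the lowest array's 25th percentile, so that their differences rest on a dim negative signal. Of those that fell, 53 had such a mean in positive cells. The 3 arrays of each sort did not overlap for 2163 genes (11.9%) in the upward direction and 2426 (13.3%) in the downward direction. Without both arrays numbered 1, 461 genes were higher and 299 lower. Leaving out negative array 1, 2 or 3 lowered the count of falls to 424, 410 and 405. In bulk RNA, fewer cells of a type and less RNA per cell cannot be told apart.

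**Figure D2:**
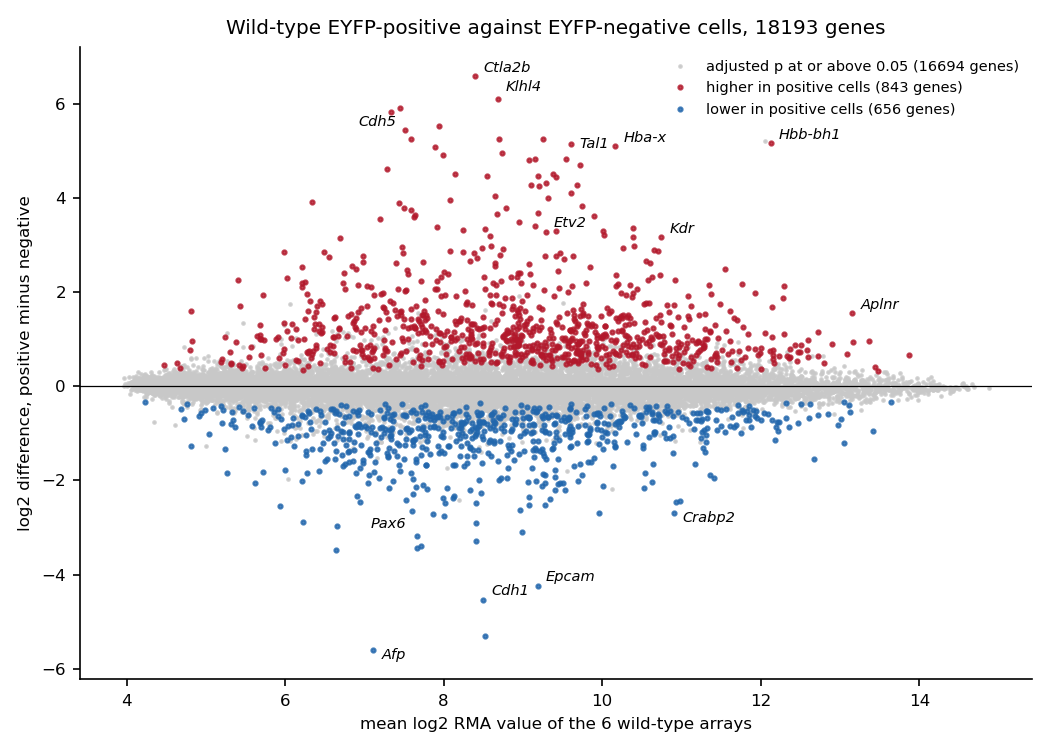
Each point is 1 gene: its mean log2 RMA value over the 6 wild-type arrays (horizontal axis) against its log2 difference, positive minus negative (vertical axis), with genes past the threshold in red (higher, 843) and blue (lower, 656). The upper cloud reaches further from 0 than the lower one.

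The 3 largest called rises belonged to 2 related protease inhibitor genes and a kelch-family gene. Ctla2b had values of 11.73, 11.42 and 11.92 on the positive arrays, against 5.17, 4.998 and 5.13 on the negative arrays, a difference of 6.59 ± 0.14 log2 (adjusted p = 3.44e-10). Ctla2a, its neighbour in sequence, differed by 5.91 ± 0.19 log2 (adjusted p = 6.3e-09), and probe sets of such near copies may share signal. Klhl4, which encodes a kelch-like protein, measured 11.40, 11.71 and 12.07 on the positive arrays, against 5.19, 6.22 and 5.50 on the negative arrays. Its difference was 6.09 ± 0.49 log2 (adjusted p = 1.26e-05). Tmem204, a membrane protein of endothelial cells, rose by 5.83 ± 0.46 log2 (adjusted p = 1.1e-05), and Tnfaip2 by 4.96 ± 0.16 log2 (adjusted p = 6.3e-09). None of these 5 genes had overlapping arrays, but genes named for the size of their rise were drawn only from those without overlap. Over all genes, 11.9% had no overlap in that direction.

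Within the ETS family, which binds DNA through a GGAA core, 23 of 25 listed genes were measured, 7 rose, 0 fell and 16 did not pass, with a median difference of 0.0044 log2 (-0.017 over all genes). On the brightest probe sets the large rises sat in 3 genes. Fli1, an ETS factor of blood and vessels that acts after Etv2, had values of 11.49, 11.57 and 11.85 on the positive arrays, against 6.93, 7.07 and 7.58 on the negative arrays. It was the largest ETS difference, at 4.44 ± 0.23 log2 (adjusted p = 3.33e-07). Elk3, a ternary complex factor expressed in embryonic vessels, measured 11.48, 11.71 and 11.80 on the positive arrays, against 7.26, 7.34 and 8.09 on the negative arrays and rose by 4.10 ± 0.22 log2 (adjusted p = 3.84e-07). Etv2 was the third, with the values above. Ets2 rose by 1.35 ± 0.15 log2 (adjusted p = 0.000146). Ets1 measured 12.40, 12.32 and 12.36 on the positive arrays, against 10.39, 10.06 and 11.38 on the negative arrays, a rise of 1.75 ± 0.32 log2 (adjusted p = 0.00517) whose call was lost without both arrays numbered 1 (adjusted p = 0.0749). The 2 remaining calls were smaller, Etv6 at 0.76 ± 0.19 log2 (adjusted p = 0.032) and Erg at 0.38 ± 0.089 log2 (adjusted p = 0.0226). Both were lost when single arrays were left out, with adjusted p 0.0802 to 0.101 without positive array 1 or 2 or negative array 1, 2 or 3 for Etv6 and adjusted p 0.0579 to 0.0833 without positive array 1 or 2 or negative array 2 or 3 for Erg. Over all alternatives run, limma's adjusted p for Erg lay between 5.03e-08 and 0.127. These alternatives include a fit on the mean of all probe sets, so the small difference of Erg describes its brightest probe set only. Of the 7 calls, 4 were made without both arrays numbered 1.

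Factors of blood formation included large rises: 27 of 28 listed genes were measured, 11 rose, 1 fell and 15 did not pass, with a median difference of 0.25 log2. Tal1, with the values above, binds DNA as a partner of E proteins and forms a complex with Lmo2 and Gata factors. Lmo2, the bridging protein of that complex, had values of 12.33, 12.15 and 11.95 on the positive arrays, against 9.25, 9.07 and 9.47 on the negative arrays and rose by 2.88 ± 0.25 log2 (adjusted p = 2.35e-05). Lyl1, the closest relative of Tal1, measured 9.42, 9.38 and 9.996 on the positive arrays, against 6.50, 5.98 and 6.18 on the negative arrays, a rise of 3.38 ± 0.20 log2 (adjusted p = 1.11e-06). Cbfa2t3, a corepressor that joins the same complex, rose by 1.99 ± 0.26 log2 (adjusted p = 0.000519). The E proteins Tcf3 and Tcf12 and the adaptor Ldb1, which are expressed in most cells, did not pass the test, at -0.45 ± 0.22, -0.17 ± 0.10 and 0.17 ± 0.29 log2. Hhex, a homeobox factor of blood, vessel and endoderm precursors, had values of 11.90, 11.48 and 11.60 on the positive arrays, against 7.77, 7.70 and 8.04 on the negative arrays and rose by 3.82 ± 0.18 log2 (adjusted p = 1.8e-07).

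Rises of the red-cell factors varied in size. Klf1, the activator of adult and embryonic globin genes, measured 9.95, 9.63 and 10.12 on the positive arrays, against 6.60, 6.50 and 6.62 on the negative arrays, a rise of 3.33 ± 0.14 log2 (adjusted p = 6.63e-08). Gata1 rose by 1.60 ± 0.21 log2 (adjusted p = 0.000662) and its cofactor Zfpm1 by 1.58 ± 0.20 log2 (adjusted p = 0.000377). Nfe2, the erythroid and megakaryocytic leucine zipper factor, had values of 6.35, 7.23 and 8.33 on the positive arrays, against 5.12, 5.02 and 5.21 on the negative arrays, the positive arrays differing among themselves by nearly as much as the difference of 2.19 ± 0.36 log2 (adjusted p = 0.00272). Gata2, which acts earlier in blood precursors, rose by 0.95 ± 0.17 log2 (adjusted p = 0.00526), and Mecom by 1.99 ± 0.20 log2 (adjusted p = 6.12e-05). Sall1, a kidney and limb factor that was included in the list, was the 1 member that fell, by 0.99 ± 0.16 log2 (adjusted p = 0.00245). With arrays of 1 number treated as pairs, 3 members fell.

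Endothelial transcription factors followed: 20 of 21 listed genes were measured, 11 rose, 0 fell and 9 did not pass, with a median difference of 0.90 log2. The 3 Sox factors of the F group, which act together in vessel and lymphatic development, had the 3 largest rises of the list. Sox7 had values of 10.34, 9.85 and 10.44 on the positive arrays, against 5.08, 4.74 and 5.09 on the negative arrays and rose by 5.24 ± 0.17 log2 (adjusted p = 6.3e-09). Sox18 measured 10.49, 10.41 and 11.10 on the positive arrays, against 6.54, 6.58 and 6.76 on the negative arrays, with a rise of 4.04 ± 0.16 log2 (adjusted p = 3.97e-08). Sox17, which is also a factor of gut endoderm, measured 12.10, 11.82 and 12.35 on the positive arrays, against 9.02, 9.68 and 8.92 on the negative arrays and rose by 2.88 ± 0.39 log2 (adjusted p = 0.000715). Epas1, the hypoxia-inducible factor of endothelial cells, rose by 2.37 ± 0.33 log2 (adjusted p = 0.000894) and Ldb2 by 2.17 ± 0.19 log2 (adjusted p = 2.52e-05). Bcl6b, Hey1, Hopx, Foxo1 and Mef2c rose by between 1.03 and 1.23 log2. Klf2, the shear-stress factor, rose by 0.76 ± 0.17 log2 (adjusted p = 0.0162), a call lost when single arrays were left out (adjusted p 0.0589 to 0.0629 without negative array 1 or 3). Prox1, the lymphatic factor, and Nr2f2, the venous factor, did not pass, at 0.37 ± 0.32 and -0.39 ± 0.16 log2.

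Most receptors of the VEGF and Tie systems rose, and among their ligands Vegfc alone passed the test. In that list all 14 listed genes were measured, 7 rose, 0 fell and 7 did not pass, with a median difference of 0.88 log2. Tek, the angiopoietin receptor, had values of 11.65, 11.33 and 11.27 on the positive arrays, against 6.82, 7.41 and 6.66 on the negative arrays, a rise of 4.46 ± 0.28 log2 (adjusted p = 1.47e-06). Flt4, the receptor for the lymphatic growth factor Vegfc, measured 10.64, 10.65 and 10.76 on the positive arrays, against 6.96, 6.88 and 6.85 on the negative arrays and rose by 3.79 ± 0.11 log2 (adjusted p = 2.67e-09). Flt1, which acts as a decoy for VEGF in the embryo, rose by 3.61 ± 0.20 log2 (adjusted p = 5.63e-07). Tie1 rose by 2.29 ± 0.30 log2 (adjusted p = 0.000582) and the coreceptor Nrp1 by 1.12 ± 0.18 log2 (adjusted p = 0.00253). The coreceptor Nrp2 measured 11.80, 11.09 and 10.95 on the positive arrays, against 10.28, 9.98 and 10.49 on the negative arrays. Its arrays did not overlap, but the difference of 1.03 ± 0.31 log2 (adjusted p = 0.0714) did not pass. Among the ligands, Vegfa measured 8.54, 8.37 and 8.51 on the positive arrays, against 8.18, 8.34 and 8.17 on the negative arrays. These too did not overlap, and the difference of 0.24 ± 0.092 log2 (adjusted p = 0.162) did not pass. Vegfb and Pgf had differences of -0.25 ± 0.24 and -0.22 ± 0.16 log2 that did not pass. Vegfc rose by 0.73 ± 0.18 log2 (adjusted p = 0.0329), and its call was lost without single arrays (adjusted p 0.0814 to 0.134 without positive array 1 or 2 or negative array 1 or 2).

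G-protein-coupled receptors of the endothelium moved in both directions: 20 of 22 listed genes were measured, 12 rose, 3 fell and 5 did not pass, with a median difference of 0.65 log2. Calcrl and Ramp2 together form the receptor for adrenomedullin, a peptide needed for lymphatic and vessel growth. Calcrl measured 12.23, 11.67 and 11.97 on the positive arrays, against 7.09, 6.83 and 7.47 on the negative arrays, a rise of 4.83 ± 0.20 log2 (adjusted p = 5.78e-08), and Ramp2 measured 11.19, 11.51 and 12.18 on the positive arrays, against 8.31, 8.34 and 8.59 on the negative arrays, a rise of 3.22 ± 0.24 log2 (adjusted p = 5.71e-06). Adm, the ligand, differed by 0.65 ± 0.24 log2 (adjusted p = 0.153). Adgrf5, an adhesion receptor, had values of 10.77, 11.77 and 11.40 on the positive arrays, against 7.47, 7.28 and 7.20 on the negative arrays and rose by 3.997 ± 0.25 log2 (adjusted p = 1.85e-06). S1pr1, the sphingosine phosphate receptor of vessel walls, rose by 2.32 ± 0.24 log2 (adjusted p = 0.000106), Adgrl4 by 1.58 ± 0.22 log2 (adjusted p = 0.000781) and F2r, a thrombin receptor, by 0.66 ± 0.11 log2 (adjusted p = 0.003). Aplnr, the apelin receptor, was already bright in negative cells, with values of 14.03, 13.75 and 14.01 on the positive arrays, against 12.08, 12.29 and 12.77 on the negative arrays and a rise of 1.55 ± 0.18 log2 (adjusted p = 0.000207). Cxcl12, a chemokine made by cells around vessels, fell by 1.36 ± 0.19 log2 (adjusted p = 0.00107), with values of 8.55, 8.83 and 8.06 on the positive arrays, against 9.82, 9.69 and 10.01 on the negative arrays. S1pr3 and Ackr3 were the other falls, at -1.55 ± 0.42 and -0.78 ± 0.19 log2. Their calls were lost when single arrays were left out, with adjusted p 0.0515 to 0.164 without positive array 2 or 3 or negative array 1, 2 or 3 for S1pr3 and adjusted p 0.0609 to 0.103 without positive array 1 or 3 or negative array 2 or 3 for Ackr3. In that list, 1 fell without positive array 3 or negative array 2 or 3 and 1 without both arrays numbered 1.

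Junction and surface proteins of endothelial cells were the list in which the most members rose: all 37 listed genes were measured, 27 rose, 0 fell and 10 did not pass, with a median difference of 1.91 log2. Cldn5, the tight junction protein of vessels, had values of 11.92, 11.68 and 12.02 on the positive arrays, against 6.69, 6.58 and 6.60 on the negative arrays, a rise of 5.25 ± 0.14 log2 (adjusted p = 1.37e-09). Icam2, an adhesion molecule for white cells, rose by 4.91 ± 0.16 log2 (adjusted p = 6.3e-09), and the mucin-like Cd34 measured 10.22, 10.40 and 10.58 on the positive arrays, against 5.59, 6.15 and 5.93 on the negative arrays, a rise of 4.51 ± 0.22 log2 (adjusted p = 1.94e-07). Plvap, which forms the diaphragms of vessel pores, measured 12.13, 11.63 and 12.43 on the positive arrays, against 7.31, 7.23 and 7.56 on the negative arrays and rose by 4.70 ± 0.25 log2 (adjusted p = 4.38e-07). The extracellular proteins Mmrn2 and Mmrn1 rose by 5.25 ± 0.16 log2 (adjusted p = 4.82e-09) and 4.62 ± 0.27 log2 (adjusted p = 9.78e-07). Lyve1, the hyaluronan receptor of lymphatic and early yolk sac endothelium, rose by 3.88 ± 0.23 log2 (adjusted p = 1.19e-06), and the scavenger receptors Stab1 and Stab2 by 3.78 ± 0.16 and 1.07 ± 0.17 log2. Esm1, a tip-cell proteoglycan, rose by 3.90 ± 0.23 log2 (adjusted p = 1.07e-06). Procr and Thbd, both of the anticoagulant protein C pathway, rose by 2.72 ± 0.21 and 1.91 ± 0.13 log2. Pecam1, an adhesion molecule of endothelium, measured 7.11, 6.54 and 6.52 on the positive arrays, against 6.08, 6.002 and 5.88 on the negative arrays, a rise of 0.74 ± 0.15 log2 (adjusted p = 0.00892). Eng, the TGF-beta coreceptor of vessels, rose by 0.60 ± 0.11 log2 (adjusted p = 0.00445) on its brightest probe set. Over the alternatives run, which include the mean of all probe sets, limma's adjusted p for Eng lay between 4.7e-07 and 0.0388.

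Signalling proteins of endothelial cells, many of which act on the cytoskeleton, included rises and no falls: all 30 listed genes were measured, 20 rose, 0 fell and 10 did not pass, with a median difference of 1.03 log2. Rhoj had values of 11.32, 11.07 and 11.34 on the positive arrays, against 6.59, 7.20 and 7.13 on the negative arrays and rose by 4.27 ± 0.17 log2 (adjusted p = 5.03e-08). Fgd5, which activates Cdc42, measured 11.52, 10.36 and 11.29 on the positive arrays, against 7.79, 7.55 and 7.97 on the negative arrays, a rise of 3.29 ± 0.36 log2 (adjusted p = 0.000137). The GTPase-activating proteins Arhgap31 and Arhgap18 rose by 2.39 ± 0.21 and 2.10 ± 0.14 log2. The kinase Prkch rose by 2.44 ± 0.15 log2 (adjusted p = 1.28e-06), the adaptor She by 2.67 ± 0.17 log2 (adjusted p = 2.17e-06) and Rasgrp3, which activates Ras and Rap, by 2.31 ± 0.38 log2 (adjusted p = 0.00256). Nos3, the endothelial nitric oxide synthase, measured 8.39, 7.87 and 8.04 on the positive arrays, against 5.85, 6.16 and 5.89 on the negative arrays, a rise of 2.13 ± 0.14 log2 (adjusted p = 2.17e-06). Rasip1, which vessels need to form a lumen, rose by 0.97 ± 0.17 log2 (adjusted p = 0.00463). The cavernous malformation genes Krit1 and Ccm2 did not pass, at -0.21 ± 0.29 and 0.26 ± 0.19 log2, whereas Pdcd10 of the same complex rose by 0.68 ± 0.19 log2 (adjusted p = 0.0455), which failed under 11 of 16 alternatives.

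Promoters of the genes that rose were searched for 5 short motifs in the RefSeq windows of the assembly GRCm38.p6, which span 250 bases before to 50 bases after each start. The motifs, read on both strands, were CCGGAAGT and CAGGAAGT for ETS factors, AGATAA for Gata factors, TGTTTAC for Forkhead factors and AACCGGTT for grainyhead factors, and the 2 ETS motifs share the letters GGAAGT. A window was held for 654 of the 843 genes that rose, 503 of the 656 that fell and 14452 of all 18193 genes. CAGGAAGT stood in 5.35% of the genes that rose, 2.39% of those that fell and 4.05% of all genes. AGATAA stood in 11.6%, 5.77% and 9.54%. CCGGAAGT, a match common in promoters of widely expressed genes, stood in 3.21%, 3.38% and 6.62%. TGTTTAC stood in 2.91%, 4.37% and 3.40%, and AACCGGTT in 0.306%, 0.199% and 0.242%. Over all 32851 RefSeq windows of that length the shares were 3.33% for CAGGAAGT, 11.2% for AGATAA, 3.89% for CCGGAAGT, 3.65% for TGTTTAC and 0.146% for AACCGGTT. These shares are descriptions of letters in a short window and carry no test.

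Of 114 genes that rose in 10 blood and endothelial lists, 75 had a window and 10 held a match before the start. Stretches of 6 of them, chosen because the genes were called under every alternative and stand for a blood factor, 2 endothelial signalling genes, a secreted endothelial protein and 2 red-cell genes, are printed 5′ to 3′ on the gene's strand with the match in capitals (CAGGAAGT, AGATAA or its reverse complement TTATCT).
Tal1 (chr4:115056201-115056246, plus strand): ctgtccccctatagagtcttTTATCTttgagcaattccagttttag
Rhoj (chr12:75308164-75308211, plus strand): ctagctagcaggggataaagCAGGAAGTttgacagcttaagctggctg
Egfl7 (chr2:26583764-26583811, plus strand): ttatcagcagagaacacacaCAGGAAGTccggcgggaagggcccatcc
Ppp1r16b (chr2:158666698-158666732, plus strand): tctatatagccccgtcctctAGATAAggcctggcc
Alas2 (chrX:150547311-150547356, plus strand): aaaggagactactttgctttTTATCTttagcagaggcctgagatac
Kel (chr6:41704356-41704401, minus strand): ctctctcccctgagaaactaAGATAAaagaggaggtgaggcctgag
Each match lies in the promoter, upstream of the first exon of that start. Counted from the start, the first base of the match lies at -205 in Tal1, -129 in Rhoj, -81 in the Egfl7 window (the second window listed for that gene), -15 in Ppp1r16b, -86 in Alas2 and -56 in Kel. A match shows only that these letters occur there. No share over all genes was computed for matches before the start, so the 10 of 75 genes stand without a background. Egfl7, a secreted protein of endothelial cells, had values of 12.08, 11.69 and 11.94 on the positive arrays, against 9.18, 9.63 and 9.07 on the negative arrays, a rise of 2.61 ± 0.19 log2 (adjusted p = 6.52e-06). Ppp1r16b, a regulatory subunit of a phosphatase, rose by 1.02 ± 0.12 log2 (adjusted p = 0.000274).

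The embryonic globin genes Hba-x, Hbb-bh1 and Hbb-y had large differences and uneven negative arrays. Of the globins, 6 of 11 listed genes were measured, 3 rose, 0 fell and 3 did not pass, with a median difference of 2.73 log2. No member lies at that median. The 3 genes above lie over it, and Hba-a1, Hba-a2 and Hbb-b2 lie under it, the lowest at -0.33 log2. Hba-a1 and Hba-a2 did not pass, and the call of Hbb-b2 was lost under 7 of 15 alternatives. Hbb-bh1, an embryonic beta-like globin, measured 14.74, 14.56 and 14.82 on the positive arrays, against 10.05, 6.70 and 11.87 on the negative arrays, a rise of 5.17 ± 1.24 log2 (adjusted p = 0.0249). The SD of its 3 negative arrays was 2.62 log2, and its call was lost when single arrays were left out (adjusted p 0.0582 to 0.0822 without positive array 1, 2 or 3 or negative array 1 or 2). Hbb-y, its neighbour in the embryonic cluster, measured 14.64, 14.47 and 14.84 on the positive arrays, against 10.80, 5.59 and 11.94 on the negative arrays, and the difference of 5.21 ± 1.77 log2 (adjusted p = 0.112) did not pass although no arrays overlapped. The shared spread also takes in the mutant negative arrays, at 6.34, 10.51 and 6.10 for Hbb-bh1 and 5.01, 11.55 and 4.71 for Hbb-y. Over the 6 wild-type arrays alone the adjusted p was 0.0335 for Hbb-bh1 and 0.0795 for Hbb-y. Globin genes are near copies of each other, so their probe sets may share signal. Negative array 2 was the lowest and negative array 3 the highest for Hbb-bh1, Hbb-y and Hba-x. By count, 1 rose without positive array 1, 2 or 3 or negative array 1 and 1 without both arrays numbered 1.

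Genes of haem synthesis and of the red-cell membrane included rises in positive cells. For haem and iron handling, 19 of 22 listed genes were measured, 7 rose, 0 fell and 12 did not pass, with a median difference of 0.31 log2. Alas2, the erythroid first step of haem synthesis, had values of 7.43, 6.55 and 7.83 on the positive arrays, against 5.35, 4.99 and 5.13 on the negative arrays, a rise of 2.11 ± 0.26 log2 (adjusted p = 0.000321). Slc25a37, the mitochondrial iron importer, rose by 1.90 ± 0.20 log2 (adjusted p = 0.000113). Cpox and Fech, both late enzymes of the pathway, rose by 1.77 ± 0.17 log2 (adjusted p = 5.53e-05) and 1.39 ± 0.12 log2 (adjusted p = 1.82e-05). Tfrc, the transferrin receptor, which all dividing cells need, did not pass, at 0.077 ± 0.12 log2 (adjusted p = 0.831). Of the members, 4 rose without positive array 3 or negative array 1 and 4 without both arrays numbered 1. For the membrane list, 18 of 21 listed genes were measured, 9 rose, 0 fell and 9 did not pass, with a median difference of 0.64 log2. Slc4a1, the anion exchanger known as band 3, measured 11.88, 10.66 and 11.87 on the positive arrays, against 6.46, 6.58 and 6.98 on the negative arrays, a rise of 4.80 ± 0.28 log2 (adjusted p = 9.46e-07). Hemgn, a nuclear protein of red-cell precursors, measured 10.30, 10.55 and 11.26 on the positive arrays, against 5.34, 4.60 and 5.59 on the negative arrays and rose by 5.53 ± 0.28 log2 (adjusted p = 3.33e-07). The blood group proteins Rhag, Ermap and Kel rose by 2.84 ± 0.32, 2.02 ± 0.18 and 1.35 ± 0.13 log2. Car2, a carbonic anhydrase, rose by 2.16 ± 0.19 log2 (adjusted p = 2.4e-05), and Blvrb by 2.47 ± 0.39 log2 (adjusted p = 0.00209). Ank1, the ankyrin that ties the membrane to spectrin, rose by 0.91 ± 0.11 log2 (adjusted p = 0.000373).

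Receptors and signalling proteins of blood cells included fewer large rises. In the receptor list 21 of 25 listed genes were measured, 7 rose, 0 fell and 14 did not pass, with a median difference of 0.21 log2. Cd44, the hyaluronan receptor, had values of 10.93, 10.61 and 10.65 on the positive arrays, against 9.34, 9.04 and 9.35 on the negative arrays, a rise of 1.49 ± 0.21 log2 (adjusted p = 0.000839), and Cd47 rose by 1.02 ± 0.17 log2 (adjusted p = 0.003). The other 5 calls, Kit, Epor, Itga2b, Itgb3 and Pf4, lay between 0.68 and 1.01 log2 and were each lost under 3 to 8 alternatives. In that list, 4 rose without negative array 1, 3 rose without positive array 3, 2 rose without negative array 2 or 3 and 4 without both arrays numbered 1. Ptprc, the marker of mature white cells, and Csf1r, the macrophage receptor, did not pass, at 0.12 ± 0.13 and -0.19 ± 0.11 log2. Of the signalling list, 23 of 25 listed genes were measured, 7 rose, 0 fell and 16 did not pass, with a median difference of 0.17 log2. Fermt3, which activates integrins in blood cells, measured 8.10, 9.76 and 9.89 on the positive arrays, against 6.67, 6.96 and 6.95 on the negative arrays, a rise of 2.39 ± 0.37 log2 (adjusted p = 0.0019). Lcp1, an actin-bundling protein of blood cells, rose by 1.80 ± 0.20 log2 (adjusted p = 0.000174) and Arhgdib by 1.32 ± 0.22 log2 (adjusted p = 0.00304). By count, 4 rose without positive array 1 or negative array 2 or 3, 3 rose without negative array 1 and 3 without both arrays numbered 1.

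Genes of growth factor pathways moved both ways. In the BMP and TGF-beta list, all 31 listed genes were measured, 7 rose, 4 fell and 20 did not pass, with a median difference of -0.011 log2. Tgfbr2, the type II receptor, had values of 11.04, 11.02 and 10.35 on the positive arrays, against 7.96, 8.12 and 8.03 on the negative arrays, a rise of 2.77 ± 0.19 log2 (adjusted p = 2.83e-06). Acvrl1, the endothelial type I receptor, rose by 1.32 ± 0.22 log2 (adjusted p = 0.00282). Bmp2 rose by 1.44 ± 0.30 log2 (adjusted p = 0.0111), a call lost without both arrays numbered 1 (adjusted p = 0.0621). Bmpr1b, Grem1, Id2 and Msx2 fell by between 0.78 and 1.51 log2, and each of these calls was lost under at least 1 alternative. Of the members, 4 rose without negative array 1 and 3 without both arrays numbered 1. In that list, 2 fell without negative array 1 and 1 without both arrays numbered 1. With arrays of 1 number treated as pairs, 8 members fell. In the Notch list, all 21 listed genes were measured, 4 rose, 5 fell and 12 did not pass, with a median difference of -0.028 log2. Hes5, a Notch target in neural progenitors, fell by 2.44 ± 0.42 log2 (adjusted p = 0.00364), and the somite ligands Dll1 and Dll3 fell by 1.37 ± 0.16 log2 (adjusted p = 0.000238) and 1.35 ± 0.27 log2 (adjusted p = 0.00807). Hey1, a Notch target in arteries and heart, rose by 1.19 ± 0.13 log2 (adjusted p = 0.000153) and Mfng, which modifies Notch receptors, by 1.12 ± 0.21 log2 (adjusted p = 0.00604). By count, 2 rose without negative array 2 or 3 and 2 without both arrays numbered 1. With paired arrays 8 members fell.

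Some basement membrane genes were among the matrix genes that rose: all 49 listed genes were measured, 14 rose, 2 fell and 33 did not pass, with a median difference of 0.35 log2. Others of the same families did not pass on their brightest probe sets: Lama1, Lama2, Lama5, Lamb2, Lamc1, Nid2, Col4a5 and Col4a6. Hspg2 did not pass either. Nid1, which links laminin to collagen IV, had values of 12.14, 11.90 and 12.16 on the positive arrays, against 8.16, 9.20 and 8.75 on the negative arrays, a rise of 3.36 ± 0.24 log2 (adjusted p = 4.22e-06). Lama4, a laminin chain of vessel walls, measured 9.57, 10.01 and 8.96 on the positive arrays, against 6.40, 6.75 and 6.80 on the negative arrays, a rise of 2.86 ± 0.32 log2 (adjusted p = 0.00016). Hapln1, which links hyaluronan to proteoglycans, rose by 2.49 ± 0.26 log2 (adjusted p = 0.000106), Itga1, a collagen receptor, by 1.93 ± 0.23 log2 (adjusted p = 0.000233) and Sparc by 1.46 ± 0.19 log2 (adjusted p = 0.00046). Lamb1 rose by 0.63 ± 0.11 log2 (adjusted p = 0.00337). The collagen IV genes Col4a1 and Col4a2 rose by 0.98 ± 0.18 and 1.07 ± 0.23 log2, the first call lost without both arrays numbered 1 and the second when single arrays were left out (adjusted p 0.0523 to 0.0533 without positive array 1 or negative array 1). Of the members, 9 rose without positive array 1 or negative array 1 and 6 without both arrays numbered 1. In that list, 1 fell without negative array 2 or 3, 0 fell without positive array 3 and 1 without both arrays numbered 1. With paired arrays 5 members fell.

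Guidance molecules moved both ways: 42 of 43 listed genes were measured, 7 rose, 10 fell and 25 did not pass, with a median difference of -0.13 log2. Plxnd1, the endothelial receptor for semaphorins, had values of 12.17, 11.55 and 11.75 on the positive arrays, against 7.48, 7.78 and 7.39 on the negative arrays, a rise of 4.27 ± 0.23 log2 (adjusted p = 4.95e-07). Sema6d, Plxnc1, Efna1 and Sema3g rose by between 1.01 and 2.06 log2. Epha7, an ephrin receptor of neural tissue, measured 7.80, 9.08 and 8.40 on the positive arrays, against 10.70, 10.39 and 10.80 on the negative arrays and fell by 2.21 ± 0.29 log2 (adjusted p = 0.000547), and Epha4 fell by 1.66 ± 0.22 log2 (adjusted p = 0.000535). Efna2, a ligand of the same family, fell by 1.01 ± 0.20 log2 (adjusted p = 0.00722). By count, 5 fell without negative array 1 or 3, 4 fell without positive array 1 and 5 without both arrays numbered 1.

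**Figure D3:**
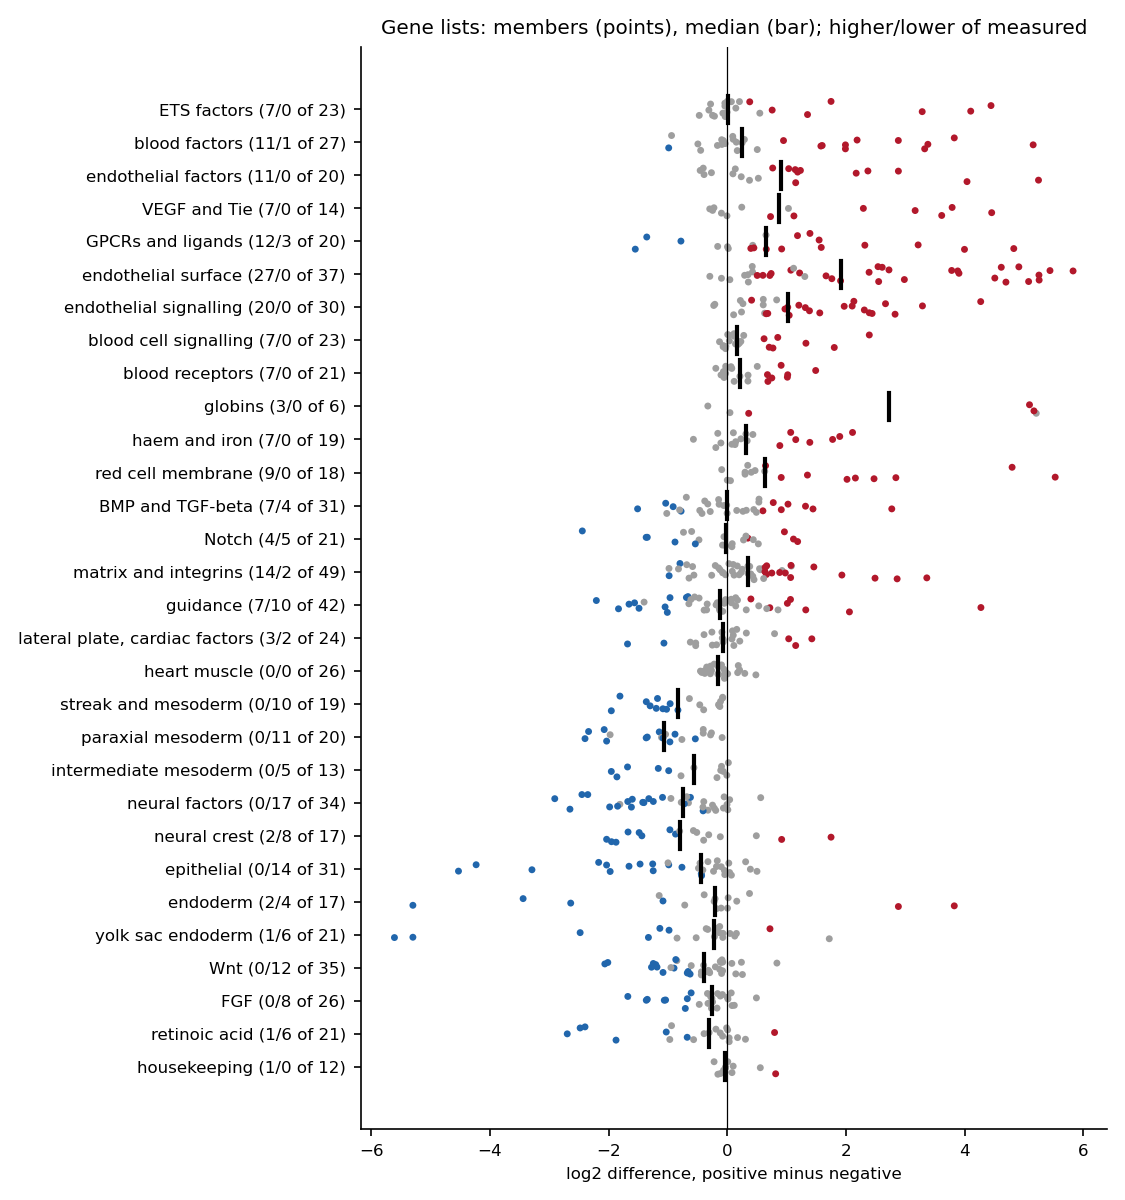
Log2 differences, positive minus negative (horizontal axis), of the measured members of 30 gene lists, 1 point per gene, red for higher, blue for lower and grey for genes not past the threshold, with a bar at each list's median; the label gives the members higher and lower of those measured. The globin list, with 6 measured members, has the median furthest to the right, though no member lies at it. The endothelial surface list, with 27 of 37 members higher, comes next, while the medians of the neural, paraxial and streak lists lie to the left of 0.

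Epithelial genes included falls and no rises: 31 of 32 listed genes were measured, 0 rose, 14 fell and 17 did not pass, with a median difference of -0.44 log2. Cdh1, the adherens junction protein of epithelia, had values of 6.12, 5.95 and 6.61 on the positive arrays, against 10.86, 10.96 and 10.45 on the negative arrays, and it fell by 4.53 ± 0.47 log2 (adjusted p = 0.000105). Epcam, an adhesion molecule of the same cells, measured 6.05, 7.24 and 7.91 on the positive arrays, against 11.40, 11.23 and 11.27 on the negative arrays and fell by 4.23 ± 0.42 log2 (adjusted p = 6.47e-05). The tight junction genes Cldn7 and Cldn6 fell by 3.29 ± 0.32 log2 (adjusted p = 5.63e-05) and 1.97 ± 0.34 log2 (adjusted p = 0.00371), and Cldn9, which is outside the list and among the 20 largest falls, fell by 3.47 ± 0.33 log2 (adjusted p = 4.6e-05). Esrp1, the epithelial splicing factor, measured 5.78, 6.67 and 6.22 on the positive arrays, against 8.35, 8.41 and 8.42 on the negative arrays, and it fell by 2.17 ± 0.31 log2 (adjusted p = 0.00116). The membrane proteases St14 and Prss8 fell, with differences of -1.26 ± 0.21 and -1.66 ± 0.29 log2, and so did their inhibitors Spint1 and Spint2, at -1.47 ± 0.18 and -2.03 ± 0.24 log2. Krt7, a keratin of simple epithelia, fell by 1.25 ± 0.23 log2 (adjusted p = 0.00489), while Krt18 did not pass, at -0.46 ± 0.30 log2.

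Neural factors were often lower in positive cells: 34 of 37 listed genes were measured, 0 rose, 17 fell and 17 did not pass, with a median difference of -0.75 log2. Pax6, a factor of forebrain, eye and spinal cord, had values of 6.20, 6.05 and 6.60 on the positive arrays, against 9.29, 8.66 and 8.85 on the negative arrays, and it fell by 2.65 ± 0.23 log2 (adjusted p = 2e-05). Zic1, a zinc-finger factor of the dorsal neural tube, measured 6.73, 8.23 and 8.73 on the positive arrays, against 10.40, 9.75 and 10.59 on the negative arrays and fell by 2.35 ± 0.40 log2 (adjusted p = 0.00352), and Zic2 and Zic5 fell, with differences of -1.68 ± 0.24 and -1.98 ± 0.28 log2. Gbx2, which sets the midbrain-hindbrain boundary, fell by 1.40 ± 0.28 log2 (adjusted p = 0.00925), and Dbx1, a spinal cord factor, by 1.32 ± 0.18 log2 (adjusted p = 0.000664). Sox1, the earliest neural marker of its group, measured 5.77, 8.20 and 6.90 on the positive arrays, against 10.24, 9.70 and 9.65 on the negative arrays, and it fell by 2.91 ± 0.60 log2 (adjusted p = 0.0108). That call was lost without both arrays numbered 1 (adjusted p = 0.122). Sox2 fell by 2.45 ± 0.57 log2 (adjusted p = 0.0203), a call lost when single arrays were left out (adjusted p 0.0552 to 0.0774 without positive array 1 or negative array 1, 2 or 3). The list's median level was 6.73, 7.37 and 6.89 log2 on positive arrays 1 to 3 and 8.34, 8.11 and 7.95 on negative arrays. Without both arrays numbered 1, 9 members fell.

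Neural crest genes included falls: 17 of 18 listed genes were measured, 2 rose, 8 fell and 7 did not pass, with a median difference of -0.80 log2. Crabp1, a retinoic acid binding protein of hindbrain and crest, measured 9.99, 10.44 and 10.84 on the positive arrays, against 12.000, 12.28 and 12.61 on the negative arrays, and it fell by 1.87 ± 0.32 log2 (adjusted p = 0.00349). Erbb3, the neuregulin receptor of crest cells, measured 7.27, 7.46 and 7.19 on the positive arrays, against 9.25, 9.06 and 8.63 on the negative arrays and fell by 1.67 ± 0.15 log2 (adjusted p = 2.44e-05). Pax3, which also marks the dorsal neural tube and somites, fell by 2.03 ± 0.20 log2 (adjusted p = 6.59e-05), and Sox9 and Tfap2b fell, with differences of -1.44 ± 0.29 and -1.49 ± 0.21 log2. The 2 members that rose, Ets1 and Ednrb, also sit in the ETS and receptor lists. The call of Ets1 was lost without both arrays numbered 1, which left 1 rise. Tfap2c, a relative of Tfap2b in surface ectoderm and trophoblast, measured 6.42, 6.86 and 6.57 on the positive arrays, against 9.40, 9.34 and 9.41 on the negative arrays and fell by 2.77 ± 0.23 log2 (adjusted p = 1.5e-05). It was the 1 call of the trophoblast list, in which 12 of 17 listed genes were measured, 0 rose, 1 fell and 11 did not pass, with a median difference of 0.074 log2. That is 8.33% of its measured members lower, beside 3.61% of all genes.

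The lists of primitive streak, paraxial and intermediate mesoderm genes included falls and no rises. In the primitive streak list, 19 of 20 listed genes were measured, 0 rose, 10 fell and 9 did not pass, with a median difference of -0.83 log2. Lhx1, a factor of early and intermediate mesoderm, had values of 8.14, 8.25 and 6.86 on the positive arrays, against 9.46, 10.03 and 9.62 on the negative arrays, and it fell by 1.95 ± 0.32 log2 (adjusted p = 0.00259). Cdx1 and Cdx4, which pattern the posterior body, fell by 1.81 ± 0.31 log2 (adjusted p = 0.00344) and 1.30 ± 0.22 log2 (adjusted p = 0.00314). Tbx6, the paraxial fate gene, fell by 1.20 ± 0.23 log2 (adjusted p = 0.00638), Fgf8 by 1.36 ± 0.27 log2 (adjusted p = 0.00843) and Pdgfra, the receptor of paraxial mesoderm, by 1.18 ± 0.18 log2 (adjusted p = 0.00146). In the paraxial list, all 20 listed genes were measured, 0 rose, 11 fell and 9 did not pass, with a median difference of -1.06 log2. Meox2, a somite homeobox factor, measured 6.16, 5.89 and 5.17 on the positive arrays, against 8.03, 7.26 and 8.94 on the negative arrays, and it fell by 2.34 ± 0.42 log2 (adjusted p = 0.00495), and Tcf15, which somites need to become epithelial, measured 9.09, 8.06 and 8.05 on the positive arrays, against 10.06, 10.23 and 11.13 on the negative arrays, and it fell by 2.07 ± 0.34 log2 (adjusted p = 0.00261). Aldh1a2, which makes retinoic acid in somites, measured 7.98, 8.26 and 8.20 on the positive arrays, against 10.13, 10.18 and 11.33 on the negative arrays and fell by 2.40 ± 0.38 log2 (adjusted p = 0.00205). In the fit without both arrays numbered 1, 6 members of the streak list and 7 of the paraxial list fell. In the intermediate mesoderm list, 13 of 14 listed genes were measured, 0 rose, 5 fell and 8 did not pass, with a median difference of -0.56 log2. Cdh6 fell by 1.86 ± 0.34 log2 (adjusted p = 0.00532), Osr1 by 1.68 ± 0.21 log2 (adjusted p = 0.000348) and Eya1 by 1.16 ± 0.19 log2 (adjusted p = 0.00237).

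Heart muscle genes had no calls. In that list all 26 listed genes were measured, 0 rose, 0 fell and 26 did not pass, with a median difference of -0.15 log2. By limma's unadjusted p under 0.05, 0 of its members passed, and under each of the 16 alternatives run 0 members passed the adjusted threshold. Myl7, a myosin light chain of early heart tube, measured 10.49, 10.91 and 9.43 on the positive arrays, against 10.22, 11.02 and 10.45 on the negative arrays, and its arrays overlapped. Its difference was -0.29 ± 0.35 log2 (adjusted p = 0.774). Among factors of lateral plate and heart, 24 of 25 listed genes were measured, 3 rose, 2 fell and 19 did not pass, with a median difference of -0.069 log2. These are 12.5% higher and 8.33% lower, beside 4.63% and 3.61% of all genes. Hopx rose by 1.15 ± 0.22 log2 (adjusted p = 0.00738) and Mef2c by 1.03 ± 0.18 log2 (adjusted p = 0.00399), both genes shared with the endothelial list. Prrx1 fell by 1.07 ± 0.19 log2 (adjusted p = 0.00396), which failed under 2 of 16 alternatives. Of the members, 4 fell without negative array 1. In the node and notochord list, 10 of 13 listed genes were measured, 0 rose, 2 fell and 8 did not pass, with a median difference of -0.13 log2. Shh, the signal of notochord and floor plate, measured 7.51, 8.79 and 9.54 on the positive arrays, against 11.43, 11.03 and 11.44 on the negative arrays, and it fell by 2.68 ± 0.48 log2 (adjusted p = 0.00468), with positive array 1 the lowest. Col2a1, a cartilage and notochord collagen, was the other call, at -0.98 ± 0.22 log2 (adjusted p = 0.0163). That call was lost when single arrays were left out (adjusted p 0.0592 to 0.0743 without positive array 1 or 3 or negative array 2), and without both arrays numbered 1, which left 1 fall in the list.

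Endoderm genes included the largest falls, those of Afp and Ttr, for which the mutant positive arrays were uneven. In the gut endoderm list, 17 of 18 listed genes were measured, 2 rose, 4 fell and 11 did not pass, with a median difference of -0.21 log2. Foxa1, a forkhead factor of gut endoderm and floor plate, measured 7.32, 7.88 and 7.72 on the positive arrays, against 10.43, 10.35 and 10.05 on the negative arrays, and it fell by 2.64 ± 0.23 log2 (adjusted p = 2.1e-05). Spink1, a protease inhibitor of early endoderm, measured 5.98, 5.72 and 6.14 on the positive arrays, against 8.71, 10.06 and 9.41 on the negative arrays, and it fell by 3.44 ± 0.62 log2 (adjusted p = 0.00466). Sox17 and Hhex, which are also factors of blood and vessel cells, were the 2 members that rose. Without both arrays numbered 1, 2 members fell. In the yolk sac endoderm list, 21 of 24 listed genes were measured, 1 rose, 6 fell and 14 did not pass, with a median difference of -0.22 log2. Afp, the fetal serum protein, measured 4.34, 4.29 and 4.30 on the positive arrays, against 9.74, 10.67 and 9.34 on the negative arrays, and it fell by 5.61 ± 1.52 log2 (adjusted p = 0.0442), and Ttr, the thyroid hormone carrier, measured 5.72, 5.14 and 6.74 on the positive arrays, against 10.91, 11.76 and 10.83 on the negative arrays, and it fell by 5.30 ± 1.34 log2 (adjusted p = 0.0328). The positive and negative wild-type arrays of both genes lay far apart, yet the SE was large, because the fit shares its spread with the mutant arrays. The mutant positive arrays gave 11.98, 5.02 and 4.03 for Afp and 12.21, 5.58 and 5.79 for Ttr, so that 1 of the 3 stood high. Over the 6 wild-type arrays alone the adjusted p was 7.15e-05 for Afp and 0.000426 for Ttr. With all groups in the fit, both calls were lost when single arrays were left out (adjusted p 0.0954 to 0.145 without positive array 1, 2 or 3 or negative array 1, 2 or 3 for Afp and adjusted p 0.0544 to 0.113 without positive array 1, 2 or 3 or negative array 1, 2 or 3 for Ttr). In that list, 3 fell without negative array 3, 2 fell without positive array 2 or negative array 1, 0 fell without positive array 1 or 3 or negative array 2 and 0 without both arrays numbered 1.

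The Wnt, FGF and retinoic acid pathways included falls. In the Wnt list, 35 of 36 listed genes were measured, 0 rose, 12 fell and 23 did not pass, with a median difference of -0.40 log2. Wnt5b, a ligand of the posterior embryo, measured 8.42, 8.29 and 8.01 on the positive arrays, against 10.65, 10.36 and 9.91 on the negative arrays, and it fell by 2.06 ± 0.21 log2 (adjusted p = 9.19e-05). Sfrp1, a secreted Wnt antagonist, measured 8.22, 8.99 and 8.83 on the positive arrays, against 10.40, 10.73 and 10.95 on the negative arrays and fell by 2.01 ± 0.26 log2 (adjusted p = 0.000535). Axin2, a target and brake of the canonical pathway, fell by 1.28 ± 0.14 log2 (adjusted p = 0.000151), and the receptors Fzd7 and Fzd3 fell, with differences of -1.25 ± 0.16 and -1.18 ± 0.18 log2. By count, 6 fell without negative array 2 or 3 and 6 without both arrays numbered 1. In the FGF list, all 26 listed genes were measured, 0 rose, 8 fell and 18 did not pass, with a median difference of -0.26 log2. Fgf18 fell by 1.35 ± 0.18 log2 (adjusted p = 0.000555) and Il17rd, an inhibitor of FGF signalling, by 1.06 ± 0.16 log2 (adjusted p = 0.00157). Of the members, 5 fell without negative array 2 and 4 without both arrays numbered 1. In the retinoic acid list, 21 of 23 listed genes were measured, 1 rose, 6 fell and 14 did not pass, with a median difference of -0.31 log2. Crabp2, which carries retinoic acid to the nucleus, measured 9.26, 9.49 and 9.92 on the positive arrays, against 12.05, 12.17 and 12.54 on the negative arrays, and it fell by 2.70 ± 0.24 log2 (adjusted p = 3.11e-05), and the target Nr2f1 fell by 1.03 ± 0.19 log2 (adjusted p = 0.00572). Cyp26b1, which degrades retinoic acid, was the 1 member that rose, at 0.80 ± 0.16 log2 (adjusted p = 0.0102), a call lost without both arrays numbered 1 (adjusted p = 0.133).

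Lists outside these lineages held 1 to 6 calls each, beside 4.63% of all genes higher and 3.61% lower. The imprinted list had 23.8% of its measured members higher, the lipid list 14.3% higher and 14.3% lower, the germ cell list 16% lower and the cell cycle list 11.5% lower. Among imprinted genes, 21 of 25 listed genes were measured, 5 rose, 0 fell and 16 did not pass, with a median difference of 0.29 log2. Plagl1, a zinc-finger regulator of growth genes, rose by 1.15 ± 0.14 log2 (adjusted p = 0.000379), Dlk1 by 0.86 ± 0.17 log2 (adjusted p = 0.00704) and Mest by 0.69 ± 0.12 log2 (adjusted p = 0.00388). The fit without both arrays numbered 1 gave 3 that rose. Among genes of lipid handling, 21 of 24 listed genes were measured, 3 rose, 3 fell and 15 did not pass, with a median difference of -0.025 log2. Abcg1, a cholesterol exporter, rose by 1.15 ± 0.19 log2 (adjusted p = 0.00276), and Scarb1, the receptor for high-density lipoprotein, by 1.14 ± 0.15 log2 (adjusted p = 0.000465). In that list, 1 fell without positive array 1, 2 or 3 or negative array 2 and 0 without both arrays numbered 1. Among germ cell and pluripotency genes, 25 of 26 listed genes were measured, 1 rose, 4 fell and 20 did not pass, with a median difference of -0.21 log2. Sall4 fell by 0.86 ± 0.13 log2 (adjusted p = 0.00156). By count, 2 fell without negative array 3, 1 fell without positive array 1 or negative array 1 or 2 and 1 without both arrays numbered 1. Among cell cycle genes, 26 of 27 listed genes were measured, 0 rose, 3 fell and 23 did not pass, with a median difference of -0.086 log2. Of the members, 1 fell without positive array 3 or negative array 1, 0 fell without positive array 2 or negative array 3 and 0 without both arrays numbered 1. Among housekeeping genes, 12 of 15 listed genes were measured, 1 rose, 0 fell and 11 did not pass, with a median difference of -0.031 log2, the 1 call being Hprt at 0.81 ± 0.14 log2 (adjusted p = 0.00292).

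Early response genes, which can be switched on within minutes when tissue is dissociated, rose in part: 23 of 24 listed genes were measured, 9 rose, 1 fell and 13 did not pass, with a median difference of 0.50 log2. Atf3 had values of 10.13, 9.16 and 9.87 on the positive arrays, against 7.50, 7.47 and 7.62 on the negative arrays, a rise of 2.19 ± 0.24 log2 (adjusted p = 0.000127). Egr1 measured 10.98, 10.04 and 10.64 on the positive arrays, against 9.07, 8.95 and 8.73 on the negative arrays and rose by 1.64 ± 0.28 log2 (adjusted p = 0.00367), while Junb and Dusp1 rose by 1.17 ± 0.20 and 0.91 ± 0.12 log2. Fos, the best known of them, did not pass, at 0.17 ± 0.31 log2 (adjusted p = 0.868). Egr2, which also patterns the hindbrain, fell by 2.71 ± 0.45 log2 (adjusted p = 0.00306), a call lost without both arrays numbered 1 (adjusted p = 0.0572). In that list, 5 rose without positive array 1 and 4 without both arrays numbered 1. The part of these genes in the other differences was not tested.

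Arrays of 1 sort differed from each other for some genes. The SD of the 3 arrays was over 1 log2 for 78 genes in positive cells and 17 in negative cells. Clec1b, a receptor of platelets and of their precursors, measured 11.11, 8.57 and 11.60 on the positive arrays, against 5.54, 5.26 and 5.24 on the negative arrays, so that positive array 2 was the low one, yet no arrays overlapped and the rise was 5.08 ± 0.60 log2 (adjusted p = 0.000243). Otx2, a forebrain factor, measured 7.34, 10.14 and 8.48 on the positive arrays, against 10.54, 10.65 and 10.20 on the negative arrays, a difference of -1.81 ± 0.54 log2 (adjusted p = 0.0698) that did not pass. Pcdh8, a protocadherin of paraxial mesoderm and nervous system, measured 6.06, 8.79 and 8.57 on the positive arrays, against 10.83, 10.17 and 10.01 on the negative arrays, with positive array 1 lowest. Myf5, the first muscle factor, varied among the negative arrays instead, at 4.77, 5.43 and 4.96 on the positive arrays, against 6.74, 5.83 and 8.51 on the negative arrays, and its difference of -1.97 ± 0.56 log2 (adjusted p = 0.0542) did not pass.

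**Figure D4:**
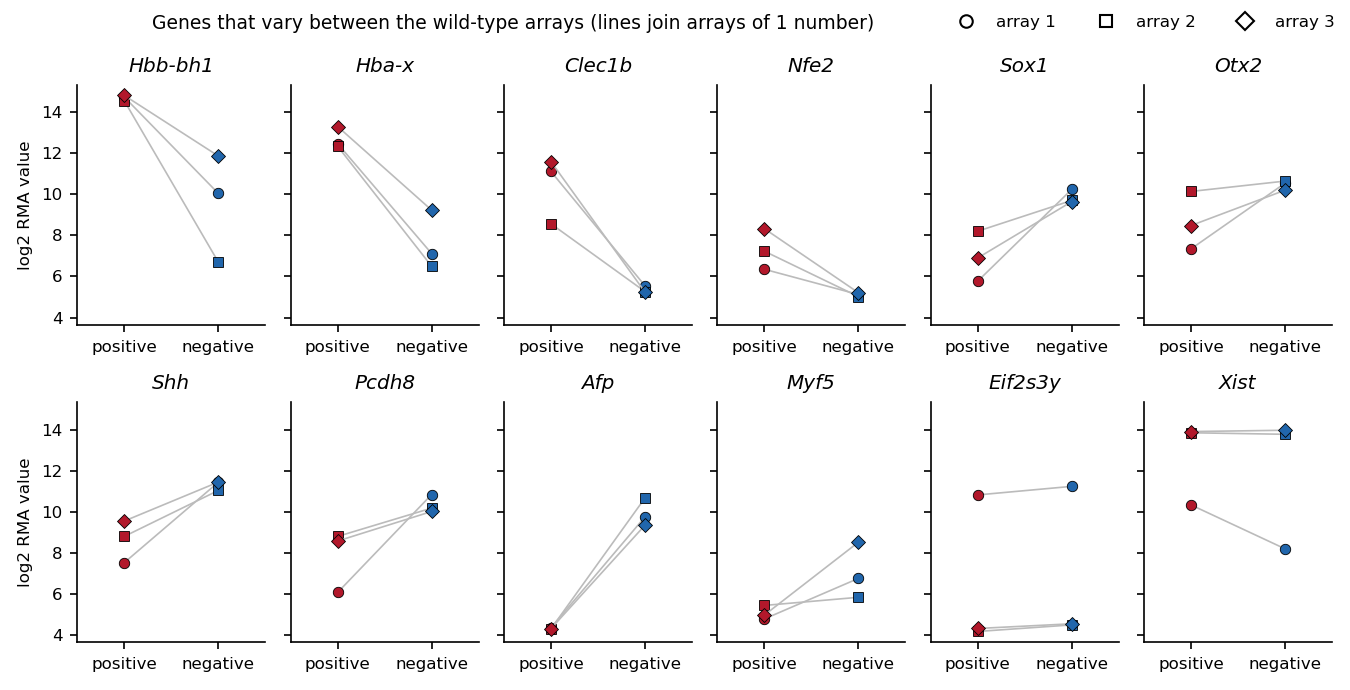
Log2 RMA values (vertical axis) of 12 genes on the wild-type positive (red) and negative (blue) arrays, with grey lines joining arrays of 1 number. Hbb-bh1 varies among the negative arrays, Sox1, Otx2 and Pcdh8 among the positive arrays with array 1 lowest, and Eif2s3y and Xist set array 1 apart in both sorts.

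The probe set that stands for a gene decided some calls. Each gene was read from its brightest probe set, and the values here come from a fit over all probe sets, so they differ slightly from those above. Genes with several probe sets were common, and 499 of the 836 genes named by rule had more than 1. In 140 of these the probe sets differed in their call, and in 1, Fgf4, they were called in opposite directions. Cd93, a surface protein of endothelial cells, differed by 0.42 ± 0.30 log2 (adjusted p = 0.581) on its brightest probe set, which did not pass, and by 5.26 ± 0.11 log2 (adjusted p = 8.87e-10) on another. Runx1, which blood stem cells need, differed by 0.25 ± 0.12 log2 (adjusted p = 0.338) on its brightest probe set and by 2.23 ± 0.16 log2 (adjusted p = 8.68e-06) on another. Ikzf1, a factor of lymphoid cells, differed by -0.095 ± 0.11 log2 (adjusted p = 0.774) and 2.75 ± 0.17 log2 (adjusted p = 3.14e-06). The same held for Pcdh12, a protocadherin of endothelial cells, with 0.043 ± 0.12 log2 (adjusted p = 0.924) and 2.71 ± 0.15 log2 (adjusted p = 1.24e-06), and for Nfatc1, a factor of the heart valve endothelium, with 0.23 ± 0.10 log2 (adjusted p = 0.278) and 2.42 ± 0.24 log2 (adjusted p = 0.000102). Rapgef3, which activates Rap1, gave 0.24 ± 0.10 log2 (adjusted p = 0.223) and 4.55 ± 0.23 log2 (adjusted p = 6.81e-07), and Laptm5, a lysosomal protein of blood cells, gave 0.18 ± 0.22 log2 (adjusted p = 0.801) and 3.74 ± 0.35 log2 (adjusted p = 7.06e-05). For Hbb-y the probe sets had like differences but unlike errors, 5.21 ± 1.79 log2 (adjusted p = 0.143) on the brightest and 5.29 ± 0.47 log2 (adjusted p = 4.76e-05) on another. These 8 genes would thus count as higher if any probe set sufficed. By that rule 918 genes (5.05%) were higher and 641 (3.52%) lower.

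**Figure D5:**
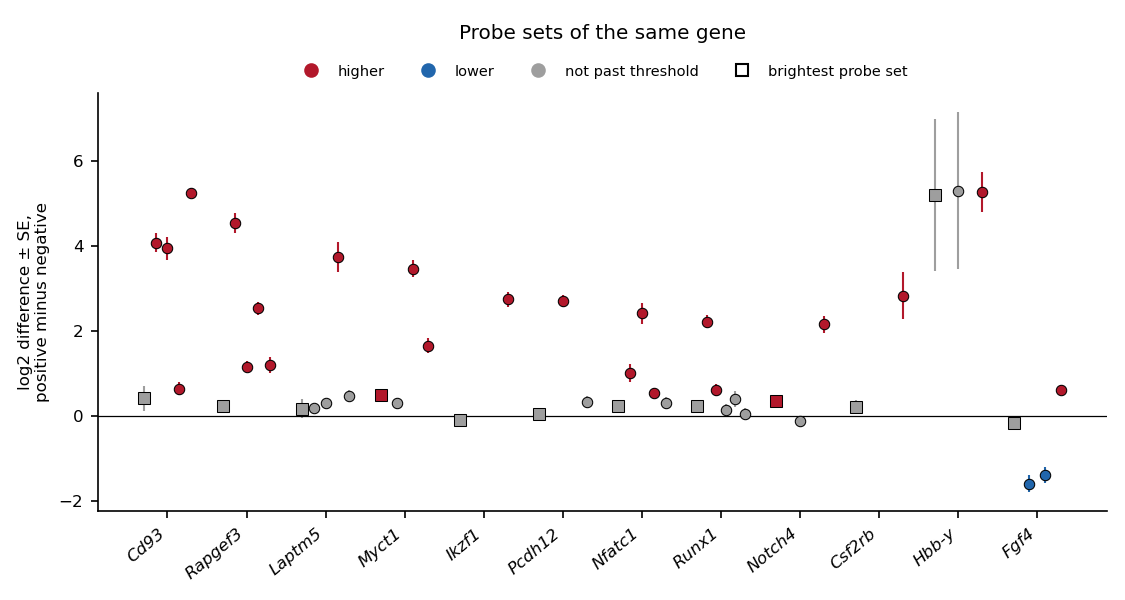
Log2 difference, positive minus negative (vertical axis), with limma's SE, for each probe set of 12 genes; squares mark the brightest probe set, red is higher, blue lower and grey not past the threshold. For Cd93, Rapgef3, Laptm5, Ikzf1, Pcdh12, Nfatc1, Runx1 and Hbb-y the square is grey while another probe set is red.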

How the data were processed

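Per the labels, RNA from trypsin-dissociated, sorted cells was amplified in 2 rounds and labelled with biotin. The deposited values are log2 expression values that the authors made with RMA, per the submitters' processing notes, with no version or settings stated there. They were used as deposited. Of 45101 probe sets, 64 were controls, 34945 had 1 gene symbol, 932 several and 9160 none in the platform table, and RefSeq (GRCm38.p6) held 34741 of the named ones. Each gene took its brightest probe set by the mean of 12 arrays, with no filter on dim signals, leaving 18193 genes (9010 had several probe sets). Single arrays had medians of 6.98 to 7.06 log2.

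One limma model (limma 3.58.1, R 4.3.3; lmFit and eBayes, 8 residual degrees of freedom) covered 4 groups of 3 arrays. P-values are two-sided and Benjamini-Hochberg adjusted over all genes, with a threshold of 0.05; errors are limma's SE or, for arrays, SD. An exact permutation test of 3 against 3 cannot go below p = 0.1. Correlations of deviations from group means over genes were 0.190, 0.102 and 0.202 for wild-type positive and negative arrays of 1 number. They were -0.241 to 0.0434 otherwise. Pairing by number was inferred from these correlations alone and entered only 1 alternative fit, the replicate block. The main model had no term for pairs, so its calls, errors and p-values are unpaired. The script was tested on simulated data.

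Named genes are list members, the 20 largest rises and falls with non-overlapping arrays, the 10 brightest and 10 most variable per group, the 10 smallest adjusted p, and list genes whose probe sets disagree. The genes and the lists were chosen with earlier results of these data known, and some genes sit in more than 1 list. Alternatives changed the arrays, pairing, probe sets, filter, normalization and variance model.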

Additional observations from a re-analysis of the deposited data

Results flagged for a closer look

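For 4 of the 5 marker genes the difference between EYFP-positive and EYFP-negative cells was not the same in wild-type and mutant embryos, by limma's interaction term. The wild-type difference exceeded the mutant one by 5.34 ± 0.15 log2 (adjusted p = 1.34e-08) for Cdh5. The excess was 4.50 ± 0.25 log2 (adjusted p = 1.68e-06) for Tal1, whose values were 7.52, 7.55 and 7.39 in mutant positive cells and 6.88, 6.86 and 6.75 in mutant negative cells. It was 3.36 ± 0.24 log2 (adjusted p = 1.33e-05) for Etv2, with values of 7.40, 7.26 and 7.28 in mutant positive cells and 7.49, 7.43 and 7.24 in mutant negative cells. It was 5.25 ± 0.78 log2 (adjusted p = 0.00333) for Hba-x, with values of 6.83, 6.75 and 6.70 in mutant positive cells and 6.57, 7.39 and 6.80 in mutant negative cells. Both comparisons use the labels' genotypes, and the part of batch or embryo in these differences was not tested. Etv2 (ER71) is itself the gene labelled as mutant, and the part of the allele in its own values was not tested either.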

How the results depend on the processing

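The 16 alternatives run on genes left the count of genes higher in positive cells within 1.5 times of 843, except that leaving out both arrays numbered 1 gave 461. Single left-out arrays gave 611 to 786. The count lower in positive cells, 656, became 1041 with a replicate block for same-numbered arrays and 299 without both arrays numbered 1. Single left-out arrays gave 405 to 537. The interaction, 469 genes, became 797 with the replicate block and lay between 299 and 486 with single arrays left out. It could not be fitted on the 6 wild-type arrays alone. The filter at the median, which tests fewer genes, gave 592 and 440. Of 217 genes of the text that were followed singly through the alternatives, 196 were called, and 175 of them passed in every alternative run. The called genes Kit, Epor, Itga2b, Itgb3, Pf4, Hbb-b2, Bmpr1b, Grem1, Id2, Msx2 and Ednrb are not counted among the 196. Each of them lost its call under at least 1 alternative. The differences of Myl7 and Fos, which were not called, changed sign: Myl7 lay between -0.60 and 0.14 log2 with single arrays left out, and Fos between -0.049 and 0.47, or -0.17 without both arrays numbered 1. The causes were not tested. Of the called genes, 417 that rose and 215 that fell passed in every alternative that held them. With 3 arrays a group, the number of arrays limits the precision, signal over background was not given, and differences taken from values near the 25th percentile of an array rest on dim signals.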

Other observations

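Some of the larger differences lay outside every list, and the genes in this paragraph were chosen after their values were seen. Ptprb, the vascular endothelial receptor phosphatase that acts on Tek and Cdh5, had log2 values of 10.99, 10.60 and 9.90 on the positive arrays, against 6.86, 6.95 and 6.72 on the negative arrays, a rise of 3.65 ± 0.25 log2 (adjusted p = 3.2e-06). Csgalnact1, which starts chondroitin sulfate chains, rose by 4.46 ± 0.23 log2 (adjusted p = 3.1e-07), and Igf1, the growth factor, by 4.32 ± 0.27 log2 (adjusted p = 1.85e-06), with values of 12.05, 10.87 and 11.42 on the positive arrays, against 7.27, 6.85 and 7.28 on the negative arrays. Cavin1, which builds caveolae, rose by 2.07 ± 0.17 log2 (adjusted p = 1.37e-05). The immune GTPase genes Gimap1, Gimap5 and Gimap8 rose by 2.84 ± 0.28 log2 (adjusted p = 5.78e-05), 1.82 ± 0.13 log2 (adjusted p = 4.67e-06) and 2.95 ± 0.17 log2 (adjusted p = 7.99e-07). Mrc1, a mannose receptor of macrophages and some endothelium, measured 8.25, 7.76 and 8.91 on the positive arrays, against 5.72, 5.67 and 5.60 on the negative arrays, a rise of 2.64 ± 0.23 log2 (adjusted p = 2.4e-05). Fcgr3, an immunoglobulin receptor of white cells, rose by 2.24 ± 0.28 log2 (adjusted p = 0.000389).

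Among falls outside the lists, Met, the receptor for hepatocyte growth factor, measured 8.03, 7.08 and 5.70 on the positive arrays, against 9.62, 9.17 and 9.12 on the negative arrays, and it fell by 2.36 ± 0.44 log2 (adjusted p = 0.00604). Ptprz1, a receptor phosphatase of neural progenitors, fell by 2.32 ± 0.24 log2 (adjusted p = 0.000105), Nrcam, a neural adhesion molecule, by 2.16 ± 0.28 log2 (adjusted p = 0.000535) and Hoxb1, a hindbrain homeobox gene, by 2.16 ± 0.35 log2 (adjusted p = 0.0026). These genes were likewise chosen for their size after the values were seen.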
